A study of Homo sapiens with 9 samples.

Results

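The 8 genes described here were chosen because they differed strongly between cytarabine-resistant HL-60 cells and their parental line: ZNF704, CACNB1, FBLN1, CCNA1, ADAM23, CNTNAP3B, CA2 and PTK7. They are 8 of the 20637 genes in the deposited table, and they were picked by symbol for large shifts in the cytarabine-resistant cells. Those cells' own values chose them, so their differences from parental cells, and from the second resistant line, are given as descriptions with no test. The choice is not stated to rest on the comparison of the second resistant line with parental cells. Values of that line may still have entered the choice. The comparison also uses the same parental libraries, so a parental value that is low or high by chance moves both differences. Its p-values are therefore not independent of the choice. All 8 genes were among the 12569 tested, which needed 10 or more normalized reads in 3 or more of the 9 libraries. ADAM23 passed that filter only through resistant-cell libraries, in which it therefore had to be higher. CNTNAP3B passed it mainly through such libraries, since only replicate 1 of its parental libraries reached 10 (13.5). No p is given for ADAM23 and CNTNAP3B. FBLN1 passed mainly through its cytarabine-resistant libraries. By size of log2 change in cytarabine-resistant cells, 7 of the 8 ranked between 11 and 26 among the 12569 genes, whereas CA2 ranked 1756. CA2 is therefore not among the most changed genes of these cells, and CNTNAP3B differed from parental cells by about as much in both resistant lines.

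HL-60 is an established line of human promyelocytic cells from acute myeloid leukaemia. HRA denotes the HL-60 line with resistance to Ara-C (cytarabine), a nucleoside analogue that stops DNA synthesis, and its cells were grown with 100 nM of the drug. HRD denotes the line with resistance to DNR (daunorubicin), an intercalating anthracycline and topoisomerase II poison, and its cells were grown with 30 nM of the drug. Parental cells are labelled as such, and no drug is named for them. Each group had 3 biological replicates of polyadenylated RNA. The labels name 1 resistant population for each drug, so resistance, exposure to the drug and the history of that population cannot be told apart.

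Reads recovered per library ran from 20822709 to 66563328, and 3 reads correspond to 1.49 to 4.52 normalized reads. Of 10 promyelocytic markers, 9 had a mean of at least 10 in every group, and their summed level ran from 310299 to 355246 in parental, 289601 to 321235 in HRA and 239270 to 299504 in HRD libraries. Most of that sum came from MPO, with means of 295528, 264812 and 232664. Single markers moved both ways, CTSG from 10855 in parental to 4120 in HRA cells and LYZ from 3142 to 6882. Of 9 tested, 3 were called higher and 2 lower in HRA cells (limma, adjusted p below 0.05), beside 9.13% and 6.1% of all tested genes. Among the 10, ELANE (neutrophil elastase) had 6, 4 and 2 reads per group. Summed T cell markers reached at most 37.9 and B cell markers at most 47.3 in any library. Erythroid and platelet markers reached at most 1.499. Epithelial and fibroblast markers summed to 69.9 to 105 in parental, 91.4 to 152 in HRA and 285 to 401 in HRD libraries, most of it from KRT8. The part of these markers in the results below was not tested. Of the HRA against parental comparisons over all genes, 15.2% were called at an adjusted p below 0.05, and 22.1% once the replicate number entered as a block (12.5% higher and 9.56% lower). For HRD against parental cells 22.8% were called, and for HRA against HRD cells 30.1%.

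The 8 genes have different roles. ZNF704 is a zinc finger transcription factor that can act with the SIN3 repressor complex, and CCNA1 encodes cyclin A1, a partner of CDK2 known from the testis and from myeloid leukaemia. CACNB1 encodes an intracellular beta subunit that helps bring voltage-gated calcium channels to the plasma membrane. FBLN1 is a secreted matrix glycoprotein of the fibulin family. ADAM23 is a membrane protein of the disintegrin and metalloprotease family that lacks protease activity and takes part in adhesion, and CNTNAP3B belongs to the neurexin-like contactin-associated proteins. CA2 is the cytosolic enzyme carbonic anhydrase II, which interconverts carbon dioxide and bicarbonate. PTK7 is a receptor-like protein with an inactive kinase domain that acts in Wnt and planar cell polarity signalling.

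ZNF704, CACNB1 and FBLN1 were high in HRA cells and were not called different between HRD and parental cells. ZNF704 had 43.8, 54.0 and 24.0 normalized reads in parental replicates 1, 2 and 3, 788, 805 and 820 in HRA and 76.9, 40.7 and 64.1 in HRD. Every HRA library was far above all other libraries, while the parental and HRD libraries overlapped. The HRA replicates were close to each other, with a mean of 804 ± 15.9 (SD, n = 3), or a coefficient of variation of 1.98%. The log2 difference from parental cells was 4.35 ± 0.29 (standard error of the limma fit), a 20.4-fold difference on the log2(value + 1) scale. In HRD cells the log2 difference was 0.59 ± 0.29 (limma, adjusted p = 0.176). That difference rested on single libraries. It was 0.26 without parental replicate 3, and 1.09 without replicate 2 of every group, an alternative chosen after seeing the data, and adjusted p-values ran from 0.0336 in the latter to 0.512. In bulk RNA, more cells that express a gene and more RNA per cell cannot be told apart, here and for every gene below.

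CACNB1 had 15.7, 13.5 and 19.5 normalized reads in parental, 279, 253 and 212 in HRA and 12.9, 25.6 and 21.4 in HRD replicates. HRA libraries again stood above all others, and HRD libraries spread around the parental values. Means were 16.2 ± 3.03, 248 ± 33.6 and 19.96 ± 6.47 (SD, n = 3) in parental, HRA and HRD cells. The log2 difference was 3.86 ± 0.28 in HRA (14.5-fold) and 0.25 ± 0.28 in HRD cells (limma, adjusted p = 0.583). Over the alternatives run, the HRD value lay between −0.07 and 0.52, with adjusted p-values from 0.175 to 0.941. An antisense gene, CACNB1-AS1, overlaps CACNB1 in RefSeq and has no value here, and whether reads were counted by strand is not given in the sources used here. The 250 bases before the CACNB1 start, chr17:39197670-39197919 on the minus strand of GRCh38.p14 (RefSeq), are shown because they hold more matches to the GC box GGGCGG, read on both strands and in capitals, than those of the other genes here.
CACNB1: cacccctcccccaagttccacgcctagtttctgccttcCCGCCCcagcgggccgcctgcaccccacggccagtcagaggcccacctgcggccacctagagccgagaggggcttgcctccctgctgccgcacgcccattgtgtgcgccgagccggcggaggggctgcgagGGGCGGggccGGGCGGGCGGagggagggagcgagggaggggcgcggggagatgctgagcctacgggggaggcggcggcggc

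FBLN1 was close to the counting floor outside HRA cells. It had 7.86, 2.45 and 24.0 normalized reads in parental, 145, 93.3 and 124 in HRA and 4.96, 3.01 and 10.7 in HRD replicates, from 32, 379 and 22 reads per group. All HRA libraries were above the 6 others, and parental replicate 3 was the highest of those 6. The group means were 11.4 ± 11.2, 121 ± 26.1 and 6.22 ± 3.99 (SD, n = 3). The log2 difference of HRA from parental cells was 3.71 ± 0.63, and leaving out parental replicate 2 gave 3.01, leaving out parental replicate 3 gave 4.44. In HRD cells it was −0.48 ± 0.63 (limma, adjusted p = 0.632), and the alternatives ran from −1.19 to 0.24 with adjusted p-values from 0.152 to 0.929. The 250 bases before its start, chr22:45502633-45502882 on the plus strand of GRCh38.p14 (RefSeq), have the highest G and C content of the promoters examined, 77.6%. Capitals mark its single GC box.
FBLN1: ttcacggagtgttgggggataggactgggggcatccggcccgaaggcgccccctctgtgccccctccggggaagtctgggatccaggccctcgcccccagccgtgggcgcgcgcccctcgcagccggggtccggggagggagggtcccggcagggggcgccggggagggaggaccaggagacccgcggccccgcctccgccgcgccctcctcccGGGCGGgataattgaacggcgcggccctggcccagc

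**Figure D1:**
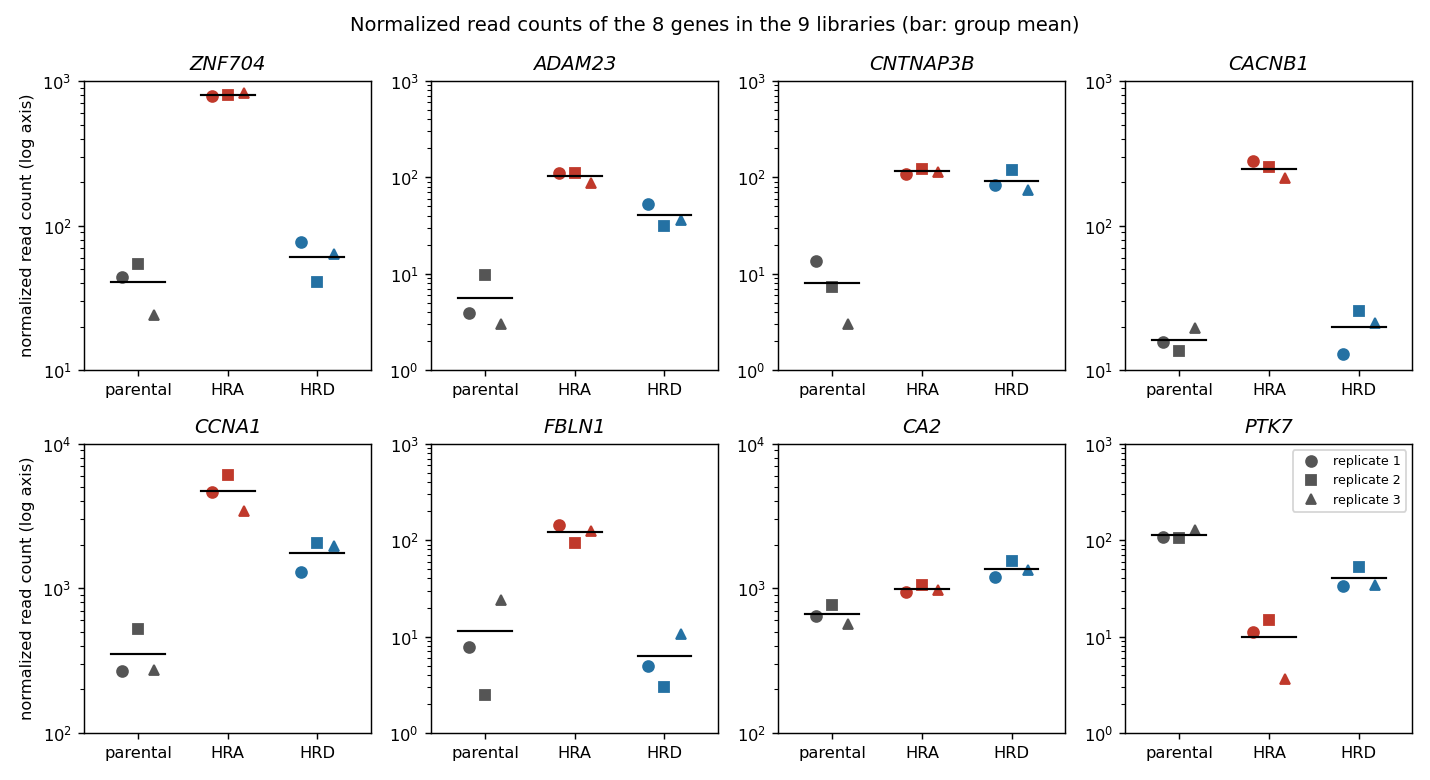
Normalized read counts (log axis) of the 8 genes in 3 parental, 3 HRA and 3 HRD libraries, 1 panel per gene, with points for single libraries and bars for group means. HRA libraries do not overlap parental ones for any gene, and HRD libraries overlap parental ones for ZNF704, CACNB1 and FBLN1.

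CCNA1, ADAM23 and CNTNAP3B were higher than in parental cells in every library of both resistant lines. CCNA1, the cyclin, had 268, 520.2 and 273 normalized reads in parental, 4654, 6094 and 3428 in HRA and 1296, 2052 and 1951 in HRD replicates. The 3 groups did not overlap, HRA was highest, and replicate 2 was the highest library in each group. Means were 354 ± 144, 4725 ± 1334 and 1766 ± 410.2 (SD, n = 3). CCNA1 differed by 3.77 ± 0.27 log2 units (13.6-fold) in HRA cells and rose by 2.36 ± 0.27 (5.13-fold) in HRD cells (limma, adjusted p = 0.000145; at most 0.00123 over the alternatives).

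CCNA2 encodes cyclin A2, the cyclin A of most dividing cells, and it gives the CCNA1 change a scale. Mean CCNA2 was 7868 ± 369.98 normalized reads in parental, 6474 ± 590 in HRA and 7396 ± 1213 in HRD cells (SD, n = 3). Its log2 difference was −0.28 in HRA cells (limma, adjusted p = 0.112, but 0.0376 under the replicate block and 0.0346 without HRD replicate 1) and −0.10 in HRD cells (adjusted p = 0.574). Per kilobase of exon, CCNA1 made up 3.74%, 6.96% and 4.10% of the 2 cyclin A genes in parental replicates 1, 2 and 3. That share was 43.3%, 54.4% and 38.6% in HRA and 14.7%, 25.9% and 25.8% in HRD replicates. In HRA replicate 2 the CCNA1 level per kilobase was thus above that of CCNA2. CDK2, the kinase partner of both, differed by −0.02 in HRA cells (adjusted p = 0.861) and fell by 0.43 on the log2 scale in HRD cells (adjusted p = 0.0027). The 250 bases before the CCNA1 start, chr13:36431705-36431954 on the plus strand of GRCh38.p14 (RefSeq), are shown for contrast, since no GC box was found in them and the sequence is all in lower case.
CCNA1: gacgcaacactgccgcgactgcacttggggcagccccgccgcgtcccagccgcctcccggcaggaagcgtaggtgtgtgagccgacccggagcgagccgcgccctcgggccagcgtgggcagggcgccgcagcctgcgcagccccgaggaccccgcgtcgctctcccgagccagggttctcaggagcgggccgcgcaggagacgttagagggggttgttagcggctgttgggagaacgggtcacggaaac

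ADAM23 was nearly absent from parental cells. It had 3.93, 9.82 and 3.00 normalized reads in parental replicates, from 17 reads in all. HRA replicates had 112, 112 and 86.5, and HRD replicates 53.6, 31.6 and 36.3. The 3 groups did not overlap, with HRD between parental and HRA cells. The log2 difference was 4.12 ± 0.38 in HRA cells (17.4-fold) and 2.76 ± 0.38 in HRD cells (6.78-fold), given as a description. The HRA value was 3.54 with a pseudocount of 4, since parental levels are low. The 250 bases before its start, chr2:206443282-206443531 on the plus strand of GRCh38.p14 (RefSeq), carry the most CpG pairs of the promoters examined, 33, against a median of 11 over 35116 promoters. Capitals mark GC boxes.
ADAM23: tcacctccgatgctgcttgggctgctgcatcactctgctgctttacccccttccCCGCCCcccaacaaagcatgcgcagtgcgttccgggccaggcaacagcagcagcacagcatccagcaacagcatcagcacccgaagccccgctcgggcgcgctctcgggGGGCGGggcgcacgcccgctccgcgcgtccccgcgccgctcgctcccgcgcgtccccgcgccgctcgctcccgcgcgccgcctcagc

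CNTNAP3B had 13.5, 7.36 and 3.00 normalized reads in parental, 109.6, 122 and 115 in HRA and 82.8, 120.5 and 74.8 in HRD replicates. Both resistant lines stood above parental cells and overlapped each other. Means were 7.94 ± 5.26, 115 ± 6.12 and 92.7 ± 24.4 (SD, n = 3). The log2 difference from parental cells was 3.89 ± 0.40 in HRA and 3.55 ± 0.40 in HRD cells, given as a description. Between HRA and HRD cells it was 0.34.

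CNTNAP3B has near-identical copies on chromosome 9, so the split of reads between them is uncertain. CNTNAP3 had 15 parental, 45 HRA and 53 HRD reads, and the pseudogene CNTNAP3P2, named after its values were seen, had 6, 83 and 84. CNTNAP3 passed the filter only through resistant-cell libraries, in which it therefore had to be higher. Its log2 difference from parental cells was 1.66 ± 0.44 in HRA and 1.71 in HRD cells, given as a description. Its calls as higher were not stable. They were lost in both lines when some single libraries were left out, and in HRA cells also without the filter and in DESeq2. The ratio of mean CNTNAP3B to CNTNAP3P2 was 3.95 in parental, 4.21 in HRA and 4.02 in HRD cells, whereas the ratio to CNTNAP3 was 2.05, 8.02 and 6.52. The 250 bases before the CNTNAP3B start, chr9:42129427-42129676 on the minus strand of GRCh38.p14 (RefSeq), are shown because they hold TTTGGCGC, an E2F-like motif present in 0.55% of promoters, besides GC boxes. Both are in capitals.
CNTNAP3B: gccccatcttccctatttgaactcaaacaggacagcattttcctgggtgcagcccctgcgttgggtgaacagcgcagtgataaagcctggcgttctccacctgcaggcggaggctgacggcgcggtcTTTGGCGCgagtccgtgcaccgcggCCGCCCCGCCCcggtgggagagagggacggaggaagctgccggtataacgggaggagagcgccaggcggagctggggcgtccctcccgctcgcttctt

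CA2 was moderately abundant in all cells and was highest in HRD, not HRA, cells. It had 647, 770.5 and 567 normalized reads in parental, 940.2, 1059 and 976 in HRA and 1200.1, 1535 and 1342 in HRD replicates. The 3 groups did not overlap, and replicate 2 was again the highest in each. Means were 661 ± 103, 992 ± 61.1 and 1359 ± 168 (SD, n = 3). The log2 difference was 0.59 ± 0.13 in HRA cells (1.51-fold), and CA2 rose by 1.04 ± 0.13 in HRD cells (2.06-fold; limma, adjusted p = 0.000204, at most 0.00135 over the alternatives). From HRD to HRA cells the log2 difference was −0.45. CA3-AS1, which overlaps CA2, had 16, 11 and 24 reads per group against 2159, 2931 and 4694 for CA2.

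PTK7 went the other way. It had 107, 104 and 126 normalized reads in parental, 11.2, 14.9 and 3.65 in HRA and 33.7, 52.7 and 34.2 in HRD replicates. The groups did not overlap, and HRA was lowest, with 30 reads in all against 360 in parental and 135 in HRD cells. Means were 112 ± 11.7, 9.90 ± 5.72 and 40.2 ± 10.8 (SD, n = 3). The log2 difference was −3.55 ± 0.41 in HRA cells (11.7-fold lower). In HRD cells PTK7 fell by 1.49 ± 0.41 on the log2 scale (2.80-fold lower; limma, adjusted p = 0.0223). The HRD call did not hold when parental replicate 1 (0.0526) or 3 (0.0692) or HRD replicate 1 (0.0639) or 3 (0.0678) was left out.

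Of the 6 genes with a p in HRD against parental cells, CCNA1 and CA2 were called higher, PTK7 was called lower, and ZNF704, CACNB1 and FBLN1 were not called. Over all tested genes 10.7% were called higher and 12.0% lower. HRD and parental libraries did not overlap for ADAM23, CNTNAP3B, CCNA1, CA2 and PTK7, beside 17.1% of all tested genes with every HRD library above and 18.2% with every one below. The 8 genes were chosen against these same parental libraries, so nothing is read from these counts. In HRA cells all 8 genes had no overlap with parental cells, 7 above and 1 below, as chosen, beside 19.3% and 18.7% of all tested genes. Nothing is read from that count either.

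**Figure D2:**
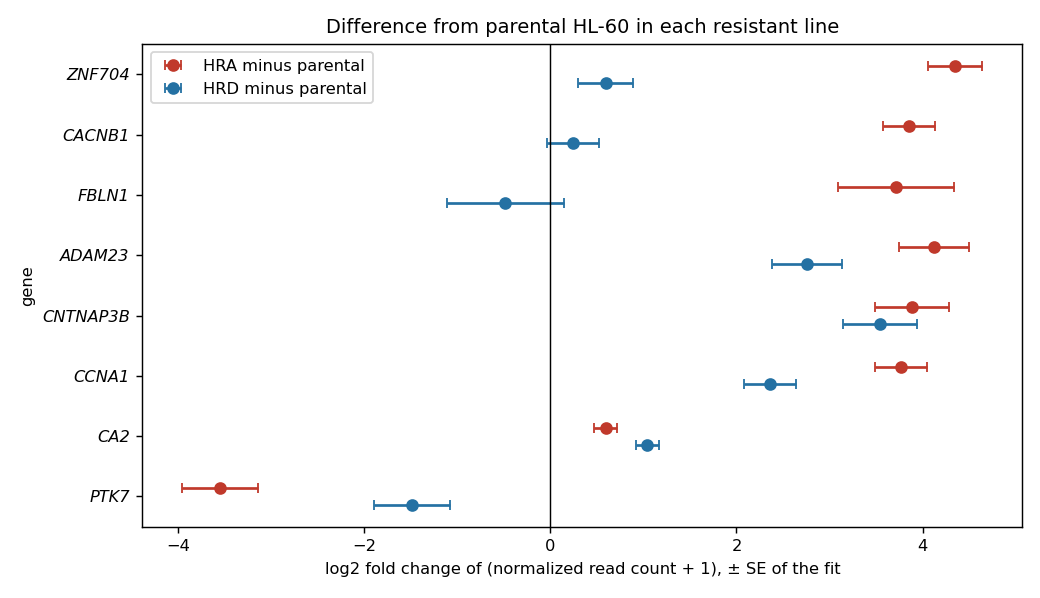
Log2 difference from parental cells of the 8 genes in HRA and HRD cells, with standard errors of the limma fit as bars. The 2 comparisons share the parental libraries. CNTNAP3B has similar values in both lines (3.89 and 3.55), CA2 is larger in HRD (1.04 against 0.59), and the HRD values of ZNF704, CACNB1 and FBLN1 are 0.59, 0.25 and −0.48, none of them called.

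Levels per kilobase of exon, which allow genes to be compared, spanned a wide range. In HRA cells the order was CCNA1 at 1969 normalized reads per kilobase, CA2 at 578, CACNB1 at 60.3, ZNF704 at 55.9, FBLN1 at 24.5, ADAM23 at 16.1, CNTNAP3B at 11.7 and PTK7 at 1.70. In parental cells CA2 led with 385, followed by CCNA1 with 147 and PTK7 with 19.3, and the other 5 genes were at 3.95 or less. In HRD cells CA2 (792) and CCNA1 (736) were close, and CNTNAP3B (9.37), PTK7 (6.90), ADAM23 (6.31), CACNB1 (4.86), ZNF704 (4.21) and FBLN1 (1.26) followed.

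Of the 8 genes, 6 had a promoter in the RefSeq table, and ZNF704 and CA2 had none there. All were richer in G and C than the median promoter (58.0%), from 66.0% in CNTNAP3B to 77.6% in FBLN1, with 23 to 33 CpG pairs against a median of 11. The GC box GGGCGG, bound by SP-family factors and searched on both strands, occurred 4 times in CACNB1, 2 times in ADAM23, CNTNAP3B and each of 2 PTK7 starts, and 1 time in FBLN1, and 42.6% of all promoters hold it. CCAAT (in 32.0% of promoters), TATAAA (10.7%), CACGTG (6.34%), TGACGTCA (1.65%) and AGATAA (9.17%), each on both strands, were not found in any of these windows. A match is a run of letters and was not tied to any binding here.

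The 8 genes did not follow a single pattern over the 9 libraries. After each gene's mean log2 level was subtracted, ADAM23 and CCNA1 were the closest pair, with a root mean square difference of 0.43 log2 units. ZNF704 and CACNB1 (0.63), ADAM23 and CNTNAP3B (0.73), CNTNAP3B and CCNA1 (0.77) and CACNB1 and FBLN1 (0.80) came next. ZNF704 and PTK7 were farthest apart (3.41).

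By the same measure, the genes outside the 8 with the most similar profiles were found among all tested genes. For ADAM23 the closest was the noncoding RNA LOC101927960 on chromosome 2 (0.23), with 14 parental, 229 HRA and 114 HRD reads. It was also closest to CCNA1 (0.33), followed by the succinate receptor SUCNR1 (0.36) and the interleukin 5 receptor subunit IL5RA (0.49). For ADAM23, SUCNR1 (0.51) and the p53-family factor TP63 (0.52) came next. CNTNAP3B was closest to the activin receptor ACVR1 (0.66), IL5RA (0.68) and LOC101927960 (0.68). ZNF704 and CACNB1 shared their nearest genes, the forkhead factor FOXL2 (0.45 and 0.31) and the noncoding RNA LINC00519 (0.46 and 0.43). Both had no reads outside HRA cells, where FOXL2 had 38 and LINC00519 had 59. They therefore passed the filter only through HRA libraries, and their log2 differences from parental cells (3.80 and 4.37) depend on the added 1. So does their closeness to ZNF704, CACNB1 and FBLN1, which was computed with that pseudocount only. Next were GFI1B (0.61), a haematopoietic repressor, for ZNF704 and the chemokine CCL23 (0.70) for CACNB1. FBLN1 was closest to MIR100HG (0.75), FOXL2 (0.82) and LINC00519 (0.83). CA2 was closest to TMSB4X, SRGN and NIPAL2 (0.11, 0.11 and 0.13), and PTK7 to UNC5B, ASS1 and PTENP1 (0.54, 0.68 and 0.70). These values describe 9 libraries and have no test.

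The nearest genes on the chromosome were compared, taking for each of the 8 the 5 tested protein-coding genes on either side in RefSeq order. On chromosome 8, 57.8% of 372 tested genes were called higher in HRA cells, with a chromosome median log2 difference of 0.49 in HRA and 0.16 in HRD cells. Around ZNF704, 5 of 10 neighbours rose in HRA cells (3 to 5 over all alternatives run) and none fell. Their median was 0.42, far below the 4.35 of ZNF704. Of its nearest, PAG1, an adaptor of SRC-family kinases, rose by 0.89 ± 0.17 in HRA cells (limma, adjusted p = 0.00495) and the fatty acid binding protein FABP5 by 0.58 (0.00403). ZBTB10 and TPD52 had 0.38 and 0.33, and in HRD cells TPD52 fell by 1.36 on the log2 scale (0.000276). Around CA2, 8 of 10 neighbours rose in HRA cells, with a median of 0.44, against 0.59 for CA2 itself. That count was 4 to 8 when single libraries were left out, and 2 to 8 over all alternatives run. In HRD cells 1 of the 10 rose, beside 67 of 372 tested genes of the chromosome and 10.7% of all tested genes called higher. The median of the 10 in HRD cells was 0.14, against 1.04 for CA2. WWP1, a ubiquitin ligase, rose by 0.63 in HRA cells (adjusted p = 0.00397), and the carbonic anhydrase CA13 had 0.31 (0.495) in HRA and 0.65 (0.127) in HRD cells. C8orf59 and RMDN1 had 0.36 and 0.37 in HRA cells. The C8orf59 call was lost without the filter (0.0548) and without parental replicate 1 or 2 or HRA replicate 1 or 2 (0.078 to 0.161), and the RMDN1 call without parental replicate 1 or 3 or any 1 HRA library (0.0502 to 0.135).

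Around each of the other 6 genes, at most 2 of 10 neighbours rose in HRA cells. Beside these counts and those of the next paragraph, 9.13% of all tested genes were called higher and 6.1% lower in HRA cells. CACNB1, on chromosome 17, had 0 of 10 neighbours higher and 1 lower in HRA cells, with a median of 0.11. In HRD cells 7 of these 10 fell, beside 221 of 663 tested genes of the chromosome and 12.0% of all tested genes, with a median of −0.80 against −0.19 over the chromosome, while CACNB1 itself was not called. RPL19, a ribosomal protein gene, fell by 0.87 on the log2 scale in HRD cells (limma, adjusted p = 0.00237) and FBXL20, an F-box protein, by 1.03 (0.000198). For PLXDC1 the HRD value was 0.05. ADAM23, on chromosome 2, had 1 higher and 3 lower neighbours in HRA cells (2 and 4 under the replicate block, and 0 to 4 lower with single libraries left out). ZDBF2, an imprinted gene, rose by 0.99 ± 0.17 in HRA (adjusted p = 0.0036) and by 0.78 ± 0.17 in HRD cells (0.00755). MDH1B had 0.84 in HRA cells (0.0578, but 0.0403 with the block and 0.0397 without HRD replicate 1), and EEF1B2 and FASTKD2 had 0.01 and −0.20.

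CNTNAP3B had 2 higher and 2 lower neighbours in HRA cells, CNTNAP3 among the higher ones, where the filter set its direction. Its other nearest genes, CBWD6, FOXD4L5 and CBWD5, had −0.18, −0.46 and −0.17 in HRA cells. CCNA1, on chromosome 13, had 2 higher and 0 lower neighbours in HRA cells, with 0 to 3 higher when single libraries were left out. The 2 were SPG20 (0.31, limma adjusted p = 0.0163) and SMAD9 (0.84 ± 0.25, 0.0435). SPG20 lost its HRA call without HRA replicate 1 (0.0755) or 2 (0.0711), and SMAD9 without any 1 of the parental libraries, of HRA or HRD replicates 2 and 3 (0.0501 to 0.17), or without the filter (0.103). RFXAP and CCDC169-SOHLH2 had 0.24 and −0.24. FBLN1, on chromosome 22, had 2 higher and 2 lower neighbours in HRA cells. UPK3A rose by 0.71 in HRA (0.0213) and by 1.56 in HRD cells (0.000128), and its HRA call was lost without parental replicate 2 (0.0649) or HRA replicate 1 (0.0876) or 3 (0.0775). FAM118A and ATXN10 fell by 0.37 and 0.39 on the log2 scale in HRA cells (0.0105 and 0.0144), the latter not called without HRA replicate 1 (0.0515) or 2 (0.0612), and neither without replicate 2 of every group (0.136 and 0.161). PPARA had 0.09. PTK7, on chromosome 6, had no neighbour called in HRA cells (1 lower with the block), and MRPL2, KLC4, SRF and CUL9 had 0.01, −0.24, −0.10 and −0.02.

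**Figure D3:**
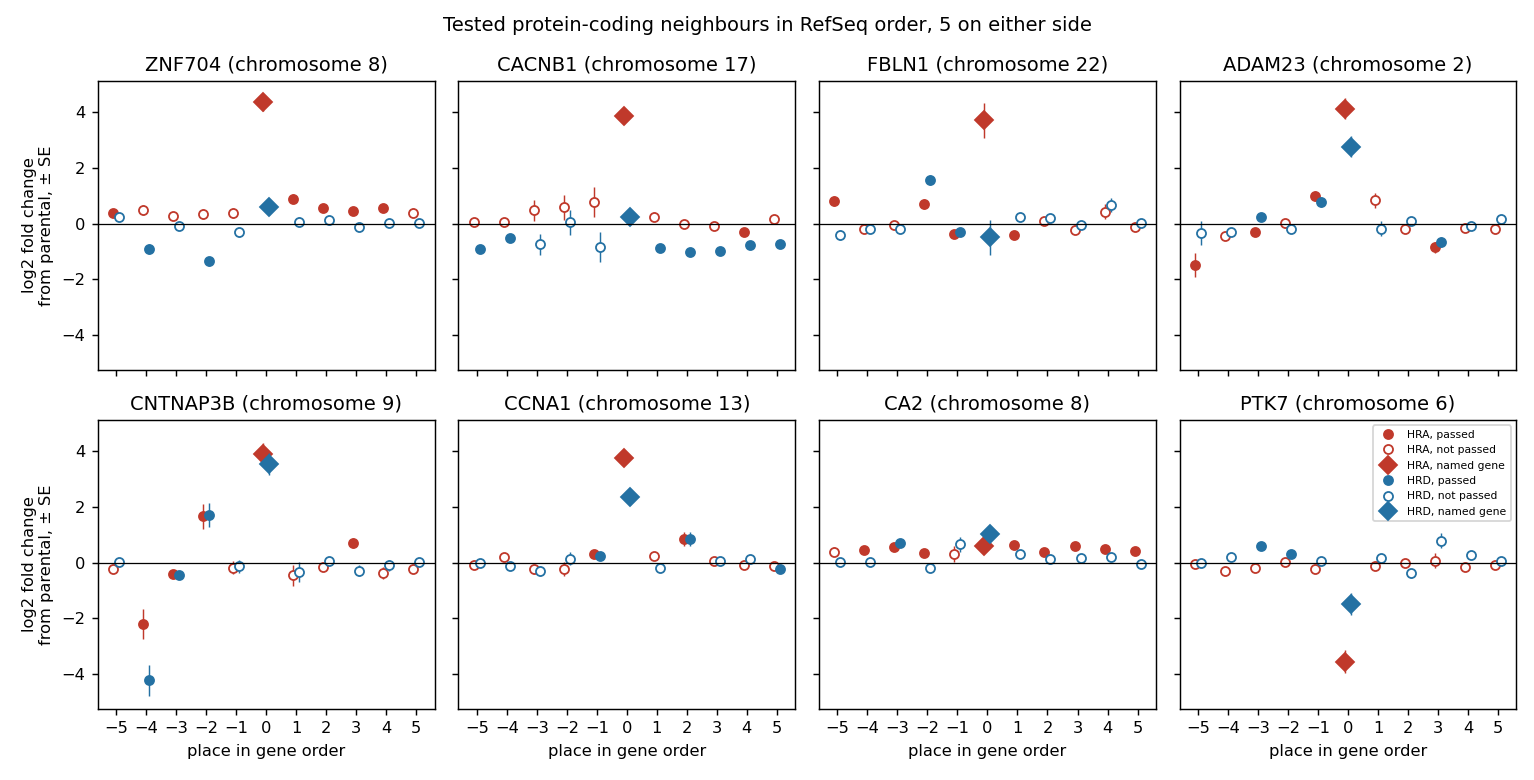
Log2 difference from parental cells in HRA and HRD cells for each of the 8 genes and the 5 tested protein-coding neighbours on either side, by order along the chromosome. The neighbours of ZNF704 and CA2 have medians of 0.42 and 0.44 in HRA cells, and those of CACNB1 −0.80 in HRD cells.

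Relatives and partners of each gene were described from lists chosen with earlier results known, beside 9.13% of all tested genes called higher and 6.1% called lower in HRA cells and an all-gene median of −0.01. Of 17 tested zinc finger relatives and SIN3 partners of ZNF704, 1 was called higher in HRA cells and none lower, with a median of −0.01. It was the histone-binding protein RBBP4 (0.32 ± 0.07, limma adjusted p = 0.0119), not called without HRA replicate 1 (0.0607) or 2 (0.0517). Its closest relatives were not called. ZNF395 had means of 610 and 731 in parental and HRA cells (0.25, limma adjusted p = 0.336), and SLC2A4RG had 411 and 402 (−0.04, limma adjusted p = 0.916).

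Of the calcium channel list, 6 of 26 genes in the table were tested, and 1 fell in HRA cells (2 under the replicate block). It was another beta subunit, CACNB3, with 116 ± 14.8 normalized reads in parental and 64.0 ± 21.1 in HRA cells (SD, n = 3; log2 −0.88, limma adjusted p = 0.0319). That call was lost without the filter (0.0558) and without parental replicate 2 or 3 or HRA replicate 1 or 3 (0.0749 to 0.13). CACNB4 had means of 36.2 and 23.9 (−0.59, adjusted p = 0.165), and CACNB2 had 9, 4 and 3 reads per group. Of 9 tested fibulins and matrix partners of FBLN1, 1 rose and 1 fell in HRA cells, with a median of 0.65. The gene called higher was LTBP1, a matrix protein that binds latent TGF-beta, with means of 7.12, 95.0 and 153 in parental, HRA and HRD cells. With a parental mean below 10, it could pass the filter only with the help of resistant-cell libraries. Its log2 difference of 4.24 ± 0.74 in HRA cells is therefore given as a description. FBN1, the microfibril protein fibrillin, fell from 145 ± 5.02 to 65.2 ± 12.0 (log2 −1.16, adjusted p = 0.00301).

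Of 34 tested cyclins, cyclin-dependent kinases and their regulators, 6 rose and 1 fell in HRA cells (8 and 3 under the replicate block), with a median of 0.00. The D-type cyclin CCND1 rose from 77.4 ± 34.0 to 549 ± 164 in HRA cells (2.85, limma adjusted p = 0.000154) and stood at 2362 in HRD cells. CCNE2 rose by 1.03 (0.00319), CDK6 by 1.02 (0.00104) and E2F2 by 0.98 (0.000487). In HRD cells 6 of the 34 rose and 5 fell, beside 10.7% and 12.0% of all tested genes. Of 7 tested ADAM proteins and ADAM23 ligands, 2 rose in HRA cells and none fell. ADAM9 rose by 0.62 (0.0176; lost without HRA replicate 1, 0.0665, or 2, 0.0576) and ADAM15 by 0.58 (0.0143; lost without HRA replicate 2, 0.0588). ADAM22, a close relative of ADAM23 that also lacks protease activity, had means of 623 ± 32.0, 682 ± 39.3 and 631 ± 68.2 in parental, HRA and HRD cells (0.13, adjusted p = 0.428, and 0.01, 0.942). ADAM11 had means of 9.87, 4.48 and 5.60 and was not tested.

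Of 4 tested contactins, neurexins and related genes, 2 were called higher and 1 lower in HRA cells. CNTNAP3 was among the higher ones, where the filter set its direction. Besides CNTNAP3, the synaptic adhesion gene NLGN2 rose from 245 ± 14.6 to 485 ± 60.5 (0.97, limma adjusted p = 0.0014). NLGN3 fell from 39.4 to 13.8 (log2 −1.51, adjusted p = 0.0237), which was not called without parental replicate 3 (0.0811) or HRA replicate 2 (0.0792). Of 12 tested carbonic anhydrases and acid-base carriers, 2 rose and none fell (1 lower with the block). The anion exchanger SLC4A2 was among them (0.64, adjusted p = 0.0249). SLC4A2 was not called without parental replicate 2 or 3 or HRA replicate 1 or 2 (0.0718 to 0.0957). The neighbours of CA2 in the family, CA1 and CA3, had 1, 0 and 0 and 1, 4 and 5 reads per group. Of 22 tested Wnt receptors and polarity partners of PTK7, 1 fell in HRA cells and none rose (2 and 1 with the block). The polarity cadherin CELSR1 fell from 468 ± 109 to 193 ± 22.3 in HRA cells (log2 −1.26, adjusted p = 0.00105) and to 265 in HRD cells (−0.80, 0.00723). ROR1 had 2, 7 and 0 reads and ROR2 0, 1 and 1.

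**Figure D4:**
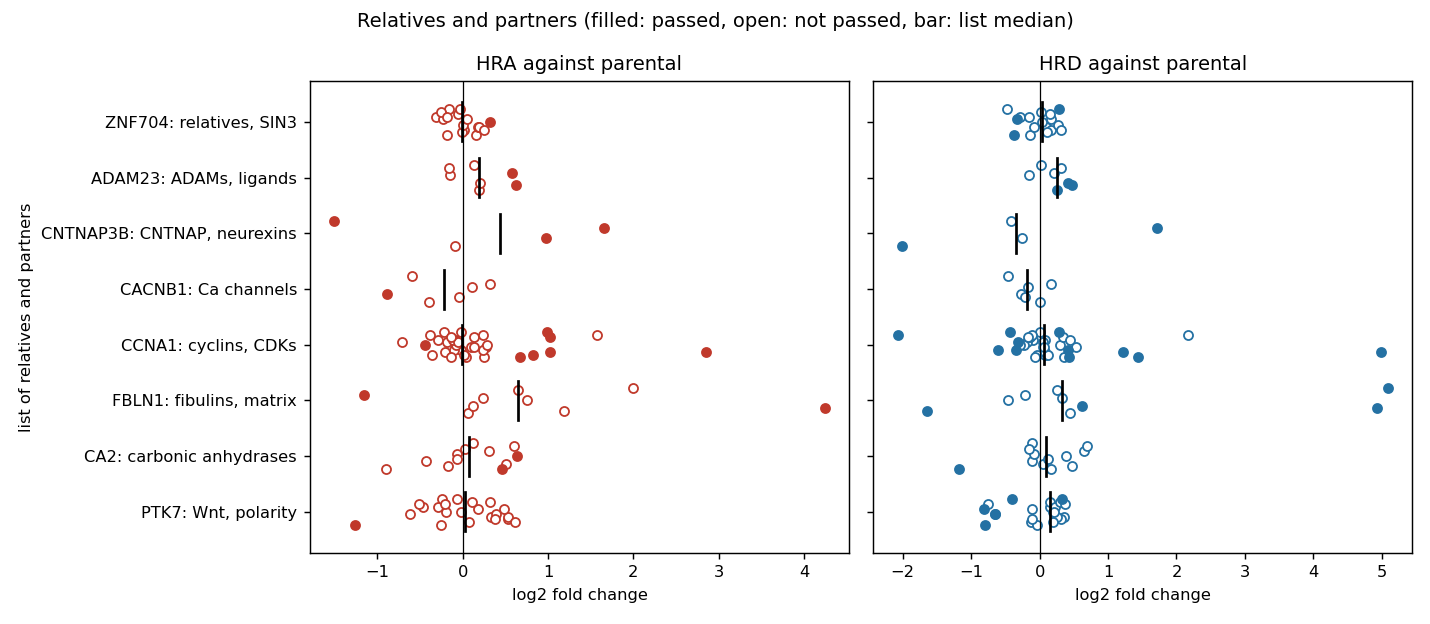
Log2 fold change from parental cells in HRA (left) and HRD cells (right) of the tested relatives and partners of each of the 8 genes, 1 row per list, with filled points for genes that passed the test, open points for those that did not and a bar at the list median. Most points lie near 0, and the list medians in HRA cells run from −0.22 for the calcium channels to 0.65 for the fibulins and matrix proteins.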

How the data were processed

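Polyadenylated RNA of 3 parental, 3 HRA and 3 HRD HL-60 replicates was sequenced from stranded libraries, per the labels. The submitters' processing notes name hg19, DESeq2, HTSeq 0.11.1, Cufflinks 2.2.1, Bowtie2 2.3.5.1, TopHat2 2.1.1 and Picard. What each did, the gene annotation and the strand setting are not given in the sources used here. The table deposited by the authors holds a normalized signal, each gene's reads over the library's size factor. Each value was a whole number of steps (within 0.001) of 1 constant per library, which gave back the reads.

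The members and the lists of relatives were chosen with earlier results of these data known. Genes were tested where 3 or more libraries reached a value of 10, so a gene below 10 in parental cells was tested only where a resistant line was higher. A linear model with 3 groups over 9 libraries was fitted to log2(value + 1) with limma's variance trend (limma 3.58.1, R 4.3.3), and p-values were adjusted by Benjamini-Hochberg over 12569 genes, with a threshold of 0.05. The added 1 shrinks folds of genes with low values. Folds on this scale can still exceed the ratio of group means, as for FBLN1 in HRA against parental cells (13.1 against 10.6). An exact permutation test of 3 against 3 cannot go below 0.1. The p-values cover the spread between these replicates. The script was tested on simulated data.

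Besides the 8 genes, the text names up to 4 genes per list that passed in HRA against parental cells with the largest change, paralogs whatever their values, the 2 nearest tested protein-coding genes on either side, and the 3 genes of most similar profile. Some genes that this rule names are not reported here. Promoters and gene order came from RefSeq GRCh38.p14, which may differ in order from hg19, most of all around CNTNAP3B. Exon lengths came from GENCODE on the same assembly, not from the annotation used for counting. Deviations from the group means of parental and HRA libraries with the same number were correlated (0.22, 0.38 and 0.14), so that the numbers were taken to pair them. HRD with parental gave −0.08, 0.26 and 0.29 and HRA with HRD −0.03, 0.41 and 0.23. Each of these sets includes a negative value, and those groups were not taken as paired. Libraries with different numbers were not correlated, so these values do not settle which groups are paired. The main fit did not use the pairing, also not for HRA against parental cells. Its calls and standard errors are those of unpaired groups, and the replicate block, over all 3 groups at once, was run as an alternative. Alternatives were other pseudocounts (0.5 and 4), no filter, a minimum of 50, TMM scaling, the replicate block, edgeR 4.0.16 and DESeq2 1.42.0 on recovered reads, each library left out, and, added after seeing the data, replicate 2 of every group left out. Tables and figures used matplotlib 3.10.9, scipy 1.17.1, numpy 2.4.6 and pandas 2.3.3.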

Additional observations from a re-analysis of the deposited data

How the results depend on the processing

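No direction reversed among the values of the 8 genes or the counts of genes called under the alternatives run, apart from values that were never called. With single libraries left out, the number of genes called ran from 902 to 2331 in HRA against parental cells (1915 with all), lowest without HRA replicate 1 and 930 without HRA replicate 2 and 1228 without HRA replicate 3. It ran from 2006 to 2864 in HRD against parental cells (2863) and from 2379 to 3931 in HRA against HRD cells (3787). Without replicate 2 of every group the counts were 686, 1415 and 1775. A fit with the replicate block gave 2774, 3639 and 4673, and of the 8 genes no HRD call changed under the block. The other settings stayed within 1.5 times the counts given here. ADAM23, CNTNAP3B, FBLN1 and PTK7 rest on 17 to 32 reads in their lowest group, so counting limits their folds.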
